A study of Rattus norvegicus with 18 samples.

Results

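The noncoding RefSeq transcripts described here are the identifiers beginning NR_ with over 10 reads in 6 or more of the 18 deposited count files. There were 62 of them among 591 NR_ identifiers, 310 of which had at least 1 read, and among 18092 identifiers in all. They were chosen by these read counts, so that their abundance is a description. The libraries hold poly(A) RNA of the C6-C8 dorsal root ganglia (DRG), which contain the cell bodies of the sensory neurons of the forelimb together with satellite glia and Schwann cells, and the ganglia of the treated side of each adult Lister Hooded rat made 1 library. The 6 naïve rats (rats 41, 42, 43, 44, 45 and 49) were uninjured and untreated. The 6 bPYX+GFP rats (rats 5, 15, 18, 21, 52 and 57) and the 6 bPYX+NT3 rats (rats 2, 11, 17, 23, 39 and 40) had both corticospinal tracts cut in the medullary pyramids, followed by forelimb flexor injections of AAV1-CMV-EGFP or of AAV1-CMV-NT3, which encodes neurotrophin-3. Their ganglia were taken 10 weeks after injury. The CMV promoter is not restricted to one cell type. There was no group with injury and no vector. The groups used here are those that the study's supplementary list of RNA samples gives for each rat number. The titles recorded with the count files name another group for 17 of the 18 rats. The header of the table of all rats pairs each rat number with a sample number, and the sample descriptions hold the same sample numbers. Linked in this way, the titles give the groups used here in 18 of 18 columns. The conflict is therefore in which count file is attached to which title, and its origin was not tested.

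RefSeq gives an NR_ identifier to any transcript without an annotated protein. The class therefore mixes long noncoding RNAs (lncRNAs), host transcripts of small nucleolar RNAs, transcribed pseudogenes, untranslated versions of coding genes, and the stem-loop precursors (hairpins) from which the enzymes Drosha and Dicer cut microRNAs. A mature microRNA finds its targets mainly by its seed, bases 2 to 8 from the 5′ end. Poly(A) selection is made for polyadenylated RNA, not for hairpins or mature microRNAs that have been cut out, so a count on a hairpin here is not a measure of the mature microRNA. Of the 62 transcripts, 60 matched a gene in RefSeq's rat annotation (GRCr8). That annotation calls 29 of them lncRNA genes, 5 of which overlap small nucleolar RNA genes, 19 microRNA genes, 6 transcribed pseudogenes, 5 protein-coding genes and 1 a small nuclear RNA gene. NR_027235 and NR_002597 had no match.

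The 19 microRNA genes gave 28 mature sequences in the RefSeq table (GRCr8), with none for Mir3577 and Mir6323. There were 28 distinct seeds, so that no seed was shared between the microRNA genes with a mature sequence. The mature sequences of the hairpins on which the results below turn are shown with the seed in capitals. Mir7-1 and Mir1896 are shown because they had the smallest p-values between the vector groups, and Mir568 and Mir22 because they covaried most strongly, in opposite directions, with a property of the libraries.

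rno-miR-7a-5p: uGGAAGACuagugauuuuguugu
rno-miR-7a-1-3p: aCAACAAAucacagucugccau
rno-miR-1896: uGGUGGGUgaggaggagg
rno-miR-568: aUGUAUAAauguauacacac
rno-miR-22-5p: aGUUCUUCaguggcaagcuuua
rno-miR-22-3p: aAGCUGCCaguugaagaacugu

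In GRCr8 these lie on chromosome 17, plus strand, at 6278710-6278732 (rno-miR-7a-5p) and 6278751-6278772 (rno-miR-7a-1-3p), within Hnrnpk. The sequence of rno-miR-1896 lies on chromosome 17, minus strand, at 47861018-47861035 within Zscan26. That of rno-miR-568 lies on chromosome 11, minus strand, at 70559921-70559940, within Zbtb20. The arms of Mir22 lie on chromosome 10, plus strand, at 60805349-60805370 and 60805387-60805408. The whole hairpins of Mir568 and Mir22 follow, because they had the highest and the lowest r among the hairpins with a sequence, with the mature arms in capitals.

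Mir568: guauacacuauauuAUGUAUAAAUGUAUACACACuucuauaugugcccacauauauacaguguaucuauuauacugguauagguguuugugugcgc
Mir22: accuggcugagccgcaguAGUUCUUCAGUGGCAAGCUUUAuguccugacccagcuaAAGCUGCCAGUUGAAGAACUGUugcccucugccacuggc

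G and C made up 32.3% of the 96 bases of Mir568 and 54.7% of the 95 bases of Mir22.

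The depth was 10057787 to 16002410 reads on NM_ (coding) identifiers per rat. The 62 transcripts together took 0.211% to 0.238% of that number, and the median was 0.221% for the naïve, 0.223% for the bPYX+GFP and 0.224% for the bPYX+NT3 group. Levels are counts per 1000000 NM_ reads (CPM), scaled by TMM factors, which correct for differences in library composition. Transcript lengths were not used, so levels compare rats and not transcripts, and for hairpins the length is known and levels per kilobase are given. 16 of the 62 transcripts had a mean of under 20 reads, where counting error alone is large. Just inside the threshold were Mir410 (11 reads in the sixth highest file) and Mir2985 (11 reads), and just outside were Abhd11-as1 and LOC100909539 (10 reads each). In the labelled tissue, the summed level of 8 sensory neuron markers was 3576 to 6658 over the rats, against 0.829 to 5.28 for 4 skeletal muscle markers.

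Reads were concentrated in a few transcripts. Miat took 34.4% of the reads on the 62 transcripts, Miat and Prrc2c together 65.0%, and the 10 most abundant 88.2%. Miat is an lncRNA of the nucleus that is known in neurons, and Prrc2c is listed as a transcribed pseudogene under the symbol of a coding gene. Over the 6 naïve rats the level of Miat was 605 at the lowest, 726 at the median and 801 at the highest. In bPYX+GFP rats it was 626, 725 and 1002, and in bPYX+NT3 rats 705, 756 and 924. The 3 groups overlapped, and the highest values were those of rats 57 and 11.

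The level of Prrc2c was 615, 707 and 747 (lowest, median and highest) in naïve rats, 567, 737 and 782 in bPYX+GFP rats and 493, 668 and 742 in bPYX+NT3 rats. Here the same rats, 57 and 11, were the lowest of their groups. Neither transcript passed the edgeR test in any comparison. For bPYX+NT3 versus naïve rats, the log2 fold change was 0.13 ± 0.09 (SE, n = 6 and 6) for Miat (edgeR unadjusted p = 0.147) and -0.09 ± 0.09 for Prrc2c (edgeR unadjusted p = 0.334).

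The next most abundant were lncRNAs, hosts of small nucleolar RNAs, a pseudogene and a transcript of a coding gene. Lnc215 had a mean of 116 over the 18 rats, Hmox2-ps1 85.7, Smim30l1 83.6 and Atp2a2, whose gene encodes the calcium pump SERCA2, 61.8. Gas5, a host of small nucleolar RNAs, had 54.4, Tug1, an lncRNA linked to chromatin regulation, 50.9, Vof16 46.1 and LOC100911177, which overlaps Snord12 and Snord12c, 22.1. HTSeq counts a read on more than 1 identifier as ambiguous, so that a count holds the reads unique to 1 identifier. For Atp2a2 the other identifiers of the gene in the files had a mean of 0 such reads, and the ambiguous reads per gene are not known. Vof16 and Lnc215 overlap each other in the annotation at the Mir100hgl locus, where the same holds. The coefficient of variation over the 18 rats ranged from 7.93% (Ybx1-ps20) to 73.5% (Tnxa-ps1), with a median of 21.5%.

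**Figure D1:**
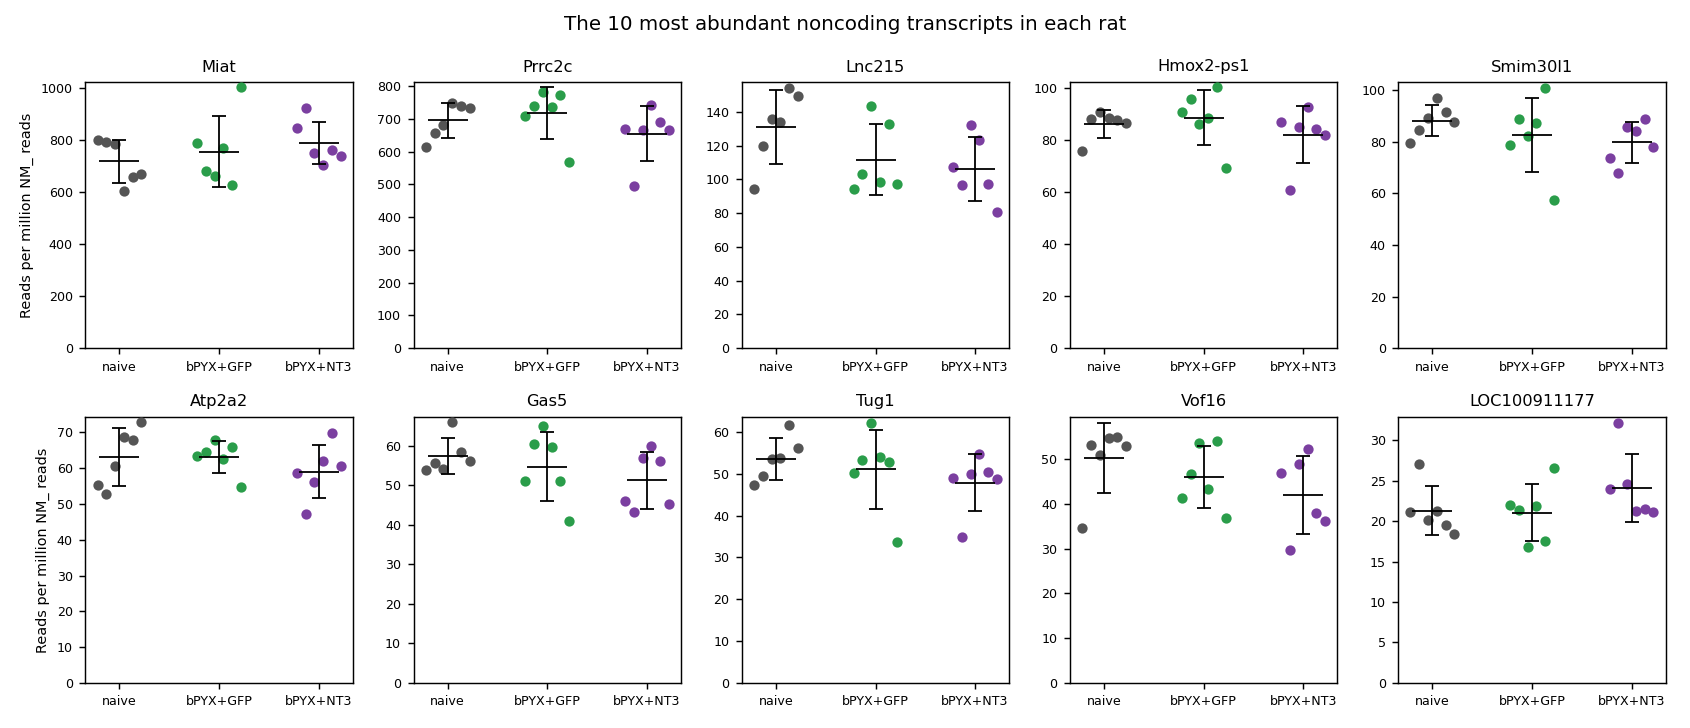
Levels of the 10 most abundant noncoding transcripts (CPM over NM_ reads, linear axes from 0) in 6 naïve, 6 bPYX+GFP and 6 bPYX+NT3 rats, where each point is 1 rat and the bar and whiskers are the mean and SD. The groups overlap in every panel.

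For the 5 transcripts of coding genes, the reads unique to the NR_ and to the coding identifier depend on how the 2 overlap, and do not measure how the gene's reads are divided. For Ngrn, which had a mean level of 9.02, the coding identifier had a mean of 0.111 unique reads, against 119 on the NR_ identifier. For Prrt2, a synaptic protein gene, there were 9.50 on the NR_ identifier and 249.6 on the coding one, and for Ppp2r2b, a phosphatase subunit gene, 23.8 and 48.1. Among the pseudogenes, Ybx1-ps20 was the steadiest of all 62 transcripts and spread from 17.4 to 24.2, while Tnxa-ps1, which overlaps Cyp21a1, spread from 0.504 to 5.73 and was highest in rat 11. Neither differed between groups beyond its spread at an unadjusted p under 0.05. The transcripts that overlap small nucleolar RNA genes in GRCr8 were Gas5, LOC100911177, LOC102549726, LOC100909675 and Dancr, with means from 54.4 (Gas5) to 2.95 (Dancr), and 0 of these 5 were called in any comparison. Snhg4, a host of small nucleolar RNAs by its name that lies at Matr3, had a mean of 14.1, and its lowest value of 6.87 was in rat 57. It was not called either.

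By the lists of known roles, H19 was the single member among imprinted noncoding RNAs, Miat, Tug1 and Ftx were the members among nuclear and X-linked lncRNAs, Gas5 and Snhg4 those among hosts of small nucleolar RNAs, and Bc1, Lnc215, Miat and Vof16 those among neural lncRNAs. Bc1, a small RNA of dendrites, had a mean of 4.35, with 3.01 to 7.35 among naïve, 2.79 to 6.24 among bPYX+GFP and 2.99 to 5.85 among bPYX+NT3 rats. Of the 7 structural RNAs and the 5 small nucleolar RNAs that the lists found by symbol in the files, 0 passed the threshold on reads. LOC252890, which the annotation calls a small nuclear RNA gene, was not on these lists by its symbol and passed, with a mean level of 0.896 (11 reads). Of the 448 microRNA identifiers 19 passed. Among the 18 hairpins with a sequence, the level per kilobase was highest for Mir568 (166), then Mir1896 (93.4), Mir186 (63.9) and Mir22 (62.7), and lowest for Mir3577 (6.86). Mir21, known as an injury-responsive microRNA, had a mean of 1.11 (14.2 reads) and its ranges overlapped between the groups (0.861 to 1.50 for naïve, 0.675 to 1.58 for bPYX+GFP and 0.837 to 1.22 for bPYX+NT3 rats).

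The first comparison asks what injury with the control vector did 10 weeks later. Between bPYX+GFP and naïve rats, 1 of the 62 transcripts was lower and 0 were higher at an unadjusted edgeR p under 0.05. Over all 11883 identifiers tested 393 were called, 3.31%, with 2.58% lower and 0.724% higher. H19, an imprinted lncRNA that is the precursor of Mir675, was the one. Its level was 1.21 at the lowest, 2.76 at the median and 5.27 at the highest in naïve rats (14 to 88 reads), and 0.378, 1.36 and 2.57 in bPYX+GFP rats (4 to 37 reads). The groups overlapped, with 5 of the 6 bPYX+GFP rats below the lowest but 1 of the naïve rats. In bPYX+NT3 rats H19 was 0.995, 1.71 and 4.51. Against naïve rats, the log2 fold change of H19 in bPYX+GFP rats was -1.14 ± 0.40 (SE, n = 6 and 6), with an unadjusted edgeR p = 0.0137, an exact two-sided permutation p = 0.0281 and an adjusted edgeR p = 1.00. With each of the 12 rats left out in turn the edgeR p of H19 stayed between 0.00196 and 0.0453.

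Markers of connective tissue moved the same way in these rats. Col1a1, which encodes a chain of type I collagen, had a log2 fold change of -0.50 ± 0.12 in bPYX+GFP versus naïve rats (edgeR p = 0.000869, exact permutation p = 0.00866). At an unadjusted edgeR p under 0.05, 2 of 4 fibroblast markers (Col1a1 and Lum), 1 of 5 Schwann cell markers and 1 of 3 mast cell markers were lower. For Lum the exact permutation p was 0.0693. Col1a1 was also lower in bPYX+NT3 versus naïve rats (-0.34 ± 0.12, edgeR p = 0.0130, exact permutation p = 0.0325), where H19 was not called. Summed over 4 fibroblast markers the level was 1664 to 2276 for naïve, 1587 to 2045 for bPYX+GFP and 1227 to 2172 for bPYX+NT3 rats. Their part in the difference in H19 was not tested, and in whole ganglia fewer cells of a type and less RNA per cell cannot be told apart. In a fit that also held the no-feature share (described below) of each rat, H19 had a log2 fold change of -1.25 and kept its call.

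Between bPYX+NT3 and naïve rats, 1 of the 62 transcripts was higher and 2 were lower at an unadjusted edgeR p under 0.05, of 718 called over all identifiers, 6.04%, with 3.1% higher and 2.95% lower. The higher one was LOC100910802, an lncRNA of unstated function. Of the 7 files in which it had more than 10 reads, 5 were of bPYX+NT3 rats, 2 of bPYX+GFP rats and 0 of naïve rats, so that it entered the set through the group where it is high and its values are a description. With more than 10 reads required in 6 of the 12 rats compared, it was not tested. It was 0.288, 0.611 and 0.706 (lowest, median and highest) in naïve rats, from 4 to 10 reads, and 0.755, 0.979 and 0.995 in bPYX+NT3 rats, from 9 to 16 reads. Every bPYX+NT3 rat lay above every naïve rat. The groups were set apart in this way for 0.126% of all identifiers in that direction and 0.278% in either, from which nothing is read here because of the selection. In bPYX+GFP rats it spread from 0.0987 to 1.13 (1 to 15 reads), across both other groups. The log2 fold change was 0.72 ± 0.23 (SE), and it did not pass after adjustment.

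Lnc215 and Dzip1-ps1 were lower in bPYX+NT3 than in naïve rats. The level of Lnc215, an lncRNA of the Mir100hgl locus that spans Mir100, Mirlet7a-2 and Mir125b1, was 94.2, 135 and 154 in naïve rats and 81.0, 102 and 132 in bPYX+NT3 rats. The bPYX+GFP rats had 94.5, 101 and 144. Its log2 fold change in bPYX+NT3 versus naïve rats was -0.30 ± 0.13 (SE), with an unadjusted edgeR p = 0.0353, an adjusted edgeR p = 0.604 and an exact permutation p = 0.0823. Vof16, which overlaps it, had -0.26 ± 0.14 (edgeR p = 0.0922, exact permutation p = 0.106). Dzip1-ps1, a transcribed pseudogene, was 3.77, 4.66 and 5.06 in naïve rats and 3.16, 3.59 and 4.74 in bPYX+NT3 rats, with a log2 fold change of -0.30 ± 0.13 (edgeR p = 0.0401, adjusted edgeR p = 0.604, exact permutation p = 0.0260). In the fit that also held the no-feature share, Lnc215 (log2 fold change -0.20) and Dzip1-ps1 (-0.24) no longer passed at an unadjusted p under 0.05, and without rat 11 neither was called. The call of Dzip1-ps1 was also lost with the edgeR likelihood ratio test (unadjusted p of 0.0546), with DESeq2 (0.0577) and with 1 fit over the 3 groups in edgeR (0.0827). That of Lnc215 was lost without TMM scaling (unadjusted edgeR p of 0.0505). Leaving out 1 rat at a time, Dzip1-ps1 lost its call without rat 41, 43, 44, 45, 49, 2, 11, 17 or 40 (edgeR p from 0.0501 to 0.0884) and Lnc215 without rat 43, 44, 45, 49, 2, 11, 39 or 40 (edgeR p from 0.0521 to 0.0839), with the direction kept. Of 24 alternatives in all, the call ended with the direction kept in 14 for Dzip1-ps1 and in 11 for Lnc215. Markers of other cells moved in these rats too. At an unadjusted edgeR p under 0.05, 2 of 4 fibroblast markers (Col1a1 and Dcn), 2 of 3 mast cell markers, 2 of 5 Schwann cell markers, 1 of 2 adipocyte markers (Adipoq) and 1 of 2 oligodendrocyte markers (Mog) were lower, and 1 of 7 sensory neuron markers, Avil, was higher. The exact permutation p was 0.214 for Adipoq and 0.0693 for Dcn, and under 0.05 for the others called. The summed level of 4 mast cell markers was 76.0 to 82.8 for bPYX+NT3 and 76.7 to 86.0 for naïve rats. Most of that sum was Kit (mean level 73.5), which had a log2 fold change of -0.00189 ± 0.0482. The 2 mast cell markers that were lower had low levels. Cpa3 (mean 3.13) had -0.88 ± 0.22 (exact permutation p = 0.00433) and Cma1 (mean 1.67) -0.70 ± 0.28 (exact permutation p = 0.0281). The part of these markers in the differences between the groups was not tested.

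**Figure D2:**
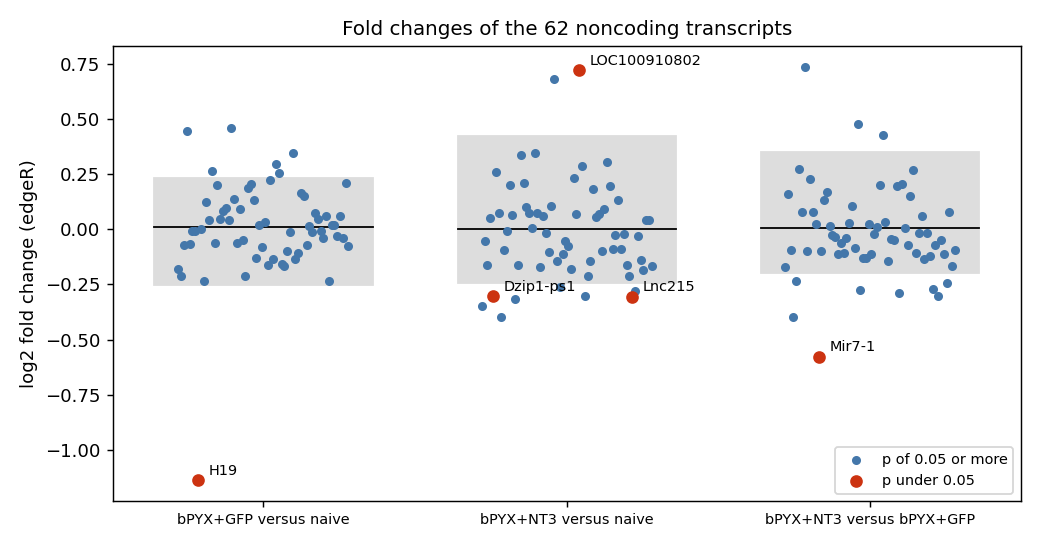
Log2 fold changes (edgeR) of the 62 noncoding transcripts in 3 comparisons. Each point is 1 transcript, red where the unadjusted p was under 0.05, the black line is the median of all 11883 identifiers and the grey box spans their 5th to 95th percentile. H19, LOC100910802, Lnc215, Dzip1-ps1 and Mir7-1 are the 5 red points.

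Between bPYX+NT3 and bPYX+GFP rats, which were given vectors that differ in the encoded protein, 1 of the 62 transcripts was lower and 0 were higher at an unadjusted edgeR p under 0.05, of 215 called over all identifiers, 1.81%, with 0.682% lower and 1.13% higher. This was Mir7-1, the hairpin of rno-miR-7a, a microRNA abundant in neurons and endocrine cells, whose sequences are printed above. Its level was 1.78, 2.58 and 3.31 in bPYX+GFP rats (18 to 40 reads) and 1.47, 1.67 and 2.14 in bPYX+NT3 rats (16 to 28 reads). The naïve rats lay between, at 1.87, 2.19 and 2.39. The lowest bPYX+GFP rat lay within the range of bPYX+NT3 rats, and the other 5 lay above it. The log2 fold change was -0.58 ± 0.17 (SE), with an unadjusted edgeR p = 0.00493, an adjusted edgeR p = 0.853 and an exact permutation p = 0.00649. With each of the 12 rats left out in turn, the edgeR p of Mir7-1 was 0.00132 to 0.0136. Its host gene Hnrnpk, an RNA-binding protein with a mean level of 872, had -0.10 ± 0.10 and did not pass, and across 18 rats the log2 levels of the hairpin and host had a Pearson r of 0.21. In the same comparison both adipocyte markers tested and 1 of 3 mast cell markers were lower at an unadjusted edgeR p under 0.05. For the adipocyte markers the exact permutation p was 0.130 (Adipoq) and 0.141 (Fabp4). Of 4 satellite glia markers, Kcnj10 was higher (0.42 ± 0.15, edgeR p = 0.0154, exact permutation p = 0.0260). The other satellite glia markers were not called, with 0.13 ± 0.30 for Fabp7, -0.10 ± 0.10 for Glul and -0.15 ± 0.14 for Cdh19. The summed level of 3 adipocyte markers was 2.43 to 78.6 for bPYX+GFP and 1.89 to 13.4 for bPYX+NT3 rats. Their part in the difference in Mir7-1 was not tested, and in the fit that also held the no-feature share Mir7-1 had a log2 fold change of -0.58 and kept its call.

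The next smallest p-values in that comparison were those of Mir1896 (log2 fold change -0.30 ± 0.15, edgeR p = 0.0692, exact permutation p = 0.0844) and Ftx, an X-linked lncRNA (-0.25 ± 0.14, edgeR p = 0.0976, exact permutation p = 0.136), neither of which passed. Mir1896 was 6.46, 7.91 and 10.3 in bPYX+GFP rats against 4.69, 6.74 and 7.72 in bPYX+NT3 rats, and these ranges overlapped. This comparison depended on rat 57: without it, 9 transcripts were called rather than 1 (3 higher and 6 lower), and 20.4% of all identifiers.

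**Figure D3:**
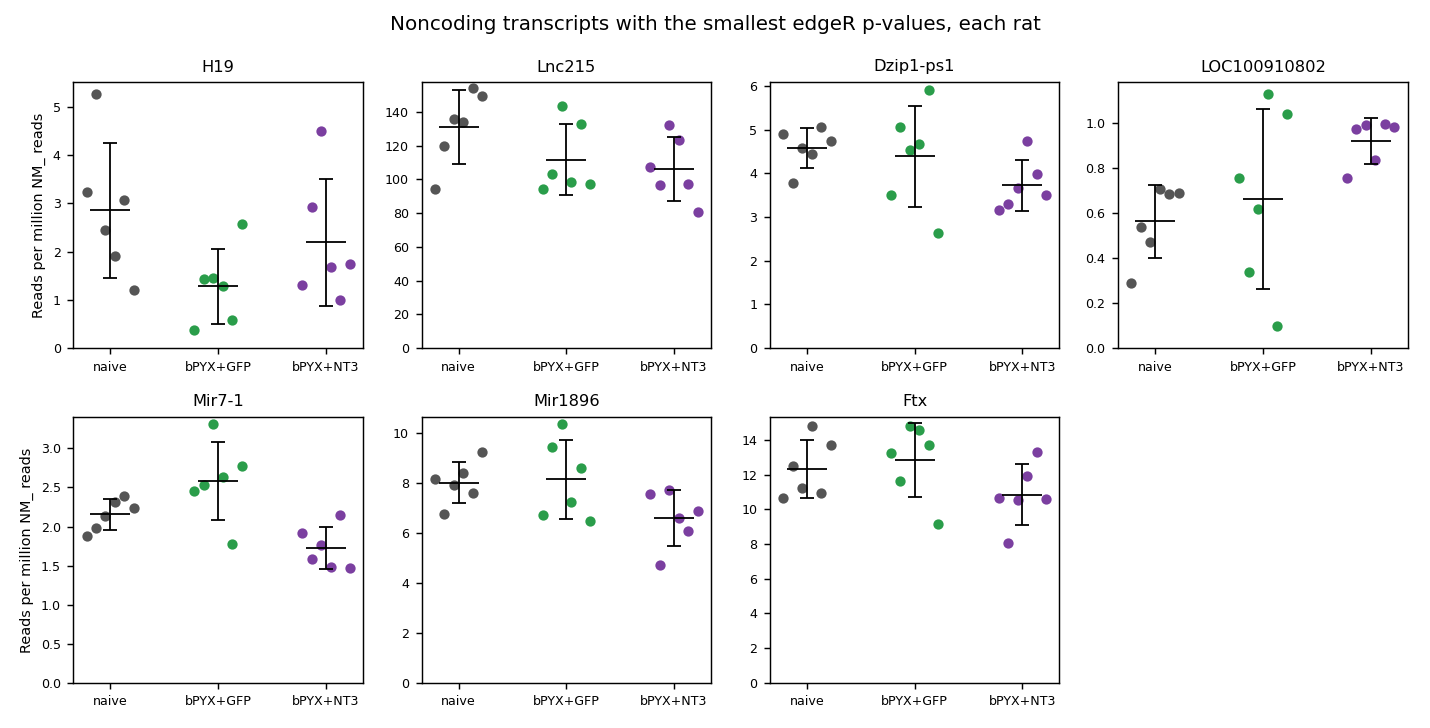
Levels of the 7 noncoding transcripts chosen by their edgeR p-value within each comparison (CPM over NM_ reads, linear axes from 0), with 1 point per rat and the mean and SD in black. The bPYX+NT3 rats lie above all naïve rats for LOC100910802, and the groups overlap in the other 6 panels.

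After adjustment over the 11883 identifiers, edgeR called 0 of the 62 transcripts and 0 of all identifiers in each of the 3 comparisons, so that the 0 is not particular to the noncoding transcripts. The likelihood ratio test and DESeq2 also called 0 of the 62, with 11 and 16 of all identifiers in bPYX+GFP versus naïve rats and 0 in the other comparisons. At an unadjusted p under 0.05 the counts were 1, 3 and 1 as above. The median log2 fold change of the 62 was 0.01 in bPYX+GFP versus naïve, -0.02 in bPYX+NT3 versus naïve and -0.04 in bPYX+NT3 versus bPYX+GFP rats, and over all identifiers it was 0.01, 0.00195 and 0.01. The comparisons share groups and are not independent. Of 7 tested microRNA biogenesis genes and 6 nonsense-mediated decay genes, 0 were called in any comparison at p under 0.05. Of 9 imprinted coding genes, Sgce was lower in bPYX+GFP versus naïve rats (log2 fold change -0.14 ± 0.06, exact permutation p = 0.0303), and Sgce (-0.16 ± 0.06, exact permutation p = 0.0108) and Mest (-0.16 ± 0.07, exact permutation p = 0.0519), each with an unadjusted edgeR p under 0.05, were lower in bPYX+NT3 versus naïve rats. Igf2, the imprinted neighbour of H19 that encodes a growth factor, had a low mean level of 0.779 and log2 fold changes that did not pass. These were 0.68 ± 0.33 in bPYX+GFP versus naïve (edgeR p = 0.0579, exact permutation p = 0.0931), -0.15 ± 0.40 in bPYX+NT3 versus naïve (edgeR p = 0.722) and -0.83 ± 0.39 in bPYX+NT3 versus bPYX+GFP rats (edgeR p = 0.0519, exact permutation p = 0.0649). Among the nonsense-mediated decay genes, Smg9 had 0.72 ± 0.41 in bPYX+NT3 versus naïve rats (edgeR p = 0.102, exact permutation p = 0.212).

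Many of the transcripts varied between rats together with the no-feature share, the percentage of a library's reads that fell in no annotated feature. This share was 30.8% in rat 11 and 31.7% in rat 57, against 32.5% to 34.6% in the other 16 rats. It had a mean of 33.6% for naïve, 33.5% for bPYX+GFP and 32.9% for bPYX+NT3 rats, and did not differ detectably between bPYX+NT3 and naïve rats (exact two-sided permutation p = 0.288). Over 11883 correlations of log2 level with the share, 7836 had a Benjamini-Hochberg adjusted permutation p under 0.05, 65.9%, and 32 of the 62 noncoding transcripts did, 51.6%. The part of this share in the differences between groups was not tested. The fits that held it give only a log2 fold change and whether a call was kept.

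The direction differed between transcripts. Prrc2c had a Pearson r of 0.97 and a Spearman rho of 0.90 with the share (permutation p = 1e-05 for each, the smallest that 100000 resamples can give), with r = 0.91 without the 2 rats farthest from the median, rats 11 and 57. Within the groups its r was 0.93 for naïve, 0.99 for bPYX+GFP and 0.99 for bPYX+NT3 rats. Tug1 had r = 0.92 (rho 0.93, 0.81 without those rats) and Mir568 r = 0.90 (rho 0.78, 0.71 without them). Miat went the other way, with r = -0.85 (rho -0.80, permutation p = 4e-05 for r and 0.00015 for rho) and r = -0.74 without those rats. Within the groups its r was -0.83, -0.92 and -0.87. Mir22 had r = -0.85 (rho -0.84, -0.77 without those rats), and LOC100911177 -0.85 (rho -0.71, -0.68). So the 2 most abundant noncoding transcripts moved in opposite directions across the rats, with r = -0.85 between their log2 levels.

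**Figure D4:**
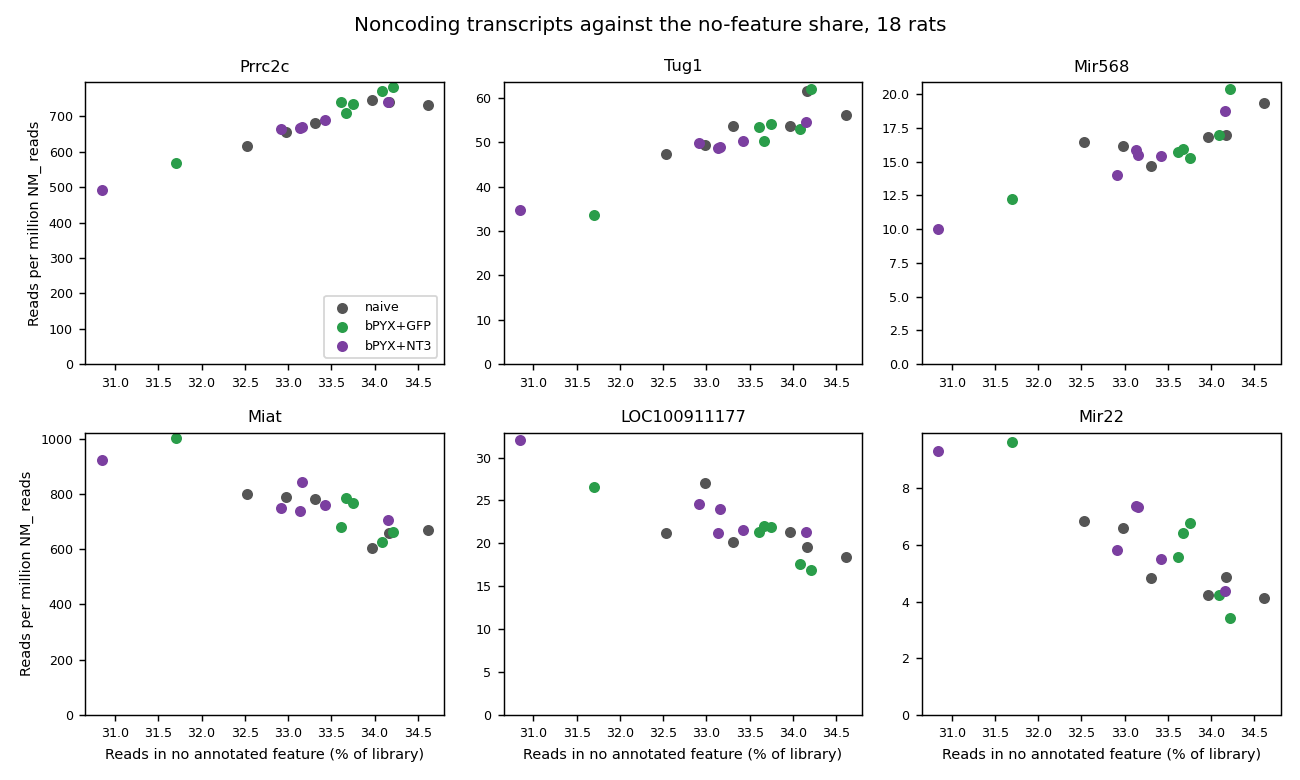
Levels of 6 noncoding transcripts (CPM over NM_ reads, linear axes from 0) against the percentage of the library's reads in no annotated feature, 1 point per rat, coloured by group. Prrc2c, Tug1 and Mir568 rise and Miat, LOC100911177 and Mir22 fall as the share rises, and rats 11 and 57 are the 2 points at the left.

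Likeness between transcripts was measured over the 18 rats. By Pearson r of log2 level, the nearest to Prrc2c were Tug1 (0.91), Hmox2-ps1 (0.91) and Mir568 (0.86), and the nearest to Miat were Tnxa-ps1 (0.88), Mir22 (0.87) and Ngrn (0.87). Lnc215 was nearest to Vof16 (0.85). Mir7-1, H19 and LOC100910802 had no near neighbour, with highest r of 0.46 (Mir1896), 0.60 (LOC102549726) and 0.51 (LOC102550394). That was not particular to them, as the highest r was 0.43 for Mir21 and 0.33 for LOC102548847.

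Among the 18 hairpins with a sequence, those richer in G and C had lower r with the no-feature share, with a Pearson r of -0.61 and a Spearman rho of -0.64 across hairpins, which share libraries and are not independent. Of 9 hairpins with over 50% GC, 6 had a negative r (median -0.47), and of 9 with 50% or less, 6 had a positive r (median 0.47). Mir1896 was an exception, at 51.9% GC and r = 0.68. For the 31 other transcripts with a promoter sequence, promoter GC had a Pearson r of -0.03 with the same measure. This is not the like of hairpin GC, because the GC content of these transcripts themselves was not measured.

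**Figure D5:**
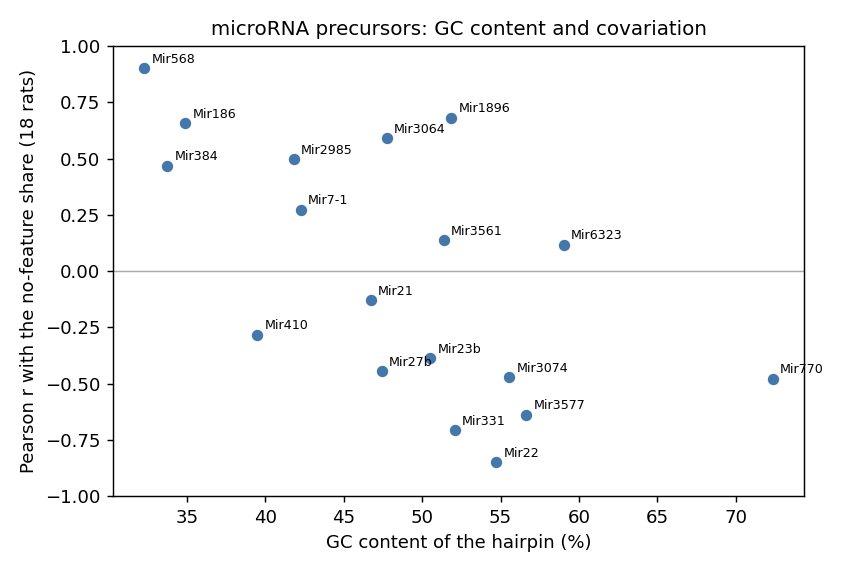
GC content of 18 microRNA hairpins (%) against the Pearson r of each hairpin's log2 level with the no-feature share over 18 rats, 1 point per hairpin. Mir568 lies at the top left and Mir22 at the bottom.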

How the data were processed

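The authors aligned reads to Rnor_6.0 with TopHat2, removed duplicates with Picard and used HTSeq to count the reads of each RefSeq identifier; raw counts were deposited per rat. Versions of these tools, other than bcl2fastq 1.8.4 (submitters' processing notes), and the strand setting are not given in the sources used here. Rows for reads in no feature (30.8% to 34.6% of a library), ambiguous reads (2.79% to 3.41%) and reads on several locations (19.0% to 22.3%) stayed out of library sizes and tests.

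Library size was the sum of NM_ counts. The 11883 identifiers with over 10 reads in 6 or more of 18 files were tested with edgeR 4.0.16 in R 4.3.3 (TMM from NM_ rows, quasi-likelihood test, 2 groups per fit, Benjamini-Hochberg adjustment). DESeq2 1.42.0 was an alternative. Single transcripts also had an exact permutation test (two-sided; log2 CPM with a prior count of 2), and correlations were tested by 100000 permutations, with Python 3.11.15, numpy 2.4.6 and scipy 1.17.1. The scripts were tested on simulated data. Sequences and names come from RefSeq (GRCr8). Each library is a separate animal.

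The members and lists were chosen with earlier results of these data known. Transcripts named are the 10 most abundant, those with an unadjusted p under 0.05 or the 3 smallest p in a comparison, members of lists by symbol, the neighbours of the read threshold and the genes overlapping them. Others were named after their values were seen. Of the table of all rats, 0 columns were not used. Counts per rat were identical to that table in 18 of 18 rats.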

Additional observations from a re-analysis of the deposited data

Results flagged for a closer look

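The levels of the 10 most abundant transcripts and of the 7 chosen by their p-value within each comparison were searched (16 transcripts in all, 48 groups). Dixon's test looked for a rat far from the other 5 of its group, which chance flags in about 1 of 20 groups. It picked out 8. In bPYX+NT3 rats, rat 11 stood apart for Prrc2c (493, the others 665 to 742), Hmox2-ps1 (60.9, the others 82.0 to 92.9), Tug1 (34.8, the others 48.7 to 54.6) and LOC100911177 (32.1, the others 21.2 to 24.6). In bPYX+GFP rats, rat 57 stood apart for Prrc2c (567, the others 709 to 782). In naïve rats, rat 41 stood apart for Hmox2-ps1 (75.7, the others 86.6 to 90.9) and Vof16 (34.6, the others 50.9 to 55.0), and rat 42 for LOC100911177 (27.1, the others 18.4 to 21.3). Rats 11, 57 and 41 had the 3 lowest no-feature shares, 30.8%, 31.7% and 32.5%, and the part of that share in these values was not tested.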

How the results depend on the processing

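No noncoding transcript was called after adjustment in any alternative, and over all identifiers 0 to 16 were. At an unadjusted p under 0.05, leaving out each rat gave 1 to 3 transcripts in bPYX+GFP versus naïve, 1 to 7 in bPYX+NT3 versus naïve and 1 to 9 in bPYX+NT3 versus bPYX+GFP rats, where the 9 came without rat 57. Over all identifiers the share called moved as well, from 2.37% to 5.12%, 3.16% to 11.9% and 1.00% to 20.4%. In bPYX+NT3 versus naïve rats, 7 came without rat 41 or rat 23 (10.2% and 11.9% of all identifiers) and 6 without rat 42 (8.93%). There, 1 came without rat 43, 45, 49 or 11 (5.44%, 3.47%, 3.40% and 3.16%). In bPYX+GFP versus naïve rats 3 came without rat 41 (3.68%). In the fits that held the no-feature share the counts were 2 in bPYX+GFP versus naïve and 1 in bPYX+NT3 versus naïve rats (7.36% and 4.14% of all identifiers). With 1 fit over the 3 groups, bPYX+NT3 versus bPYX+GFP gave 2 (2.26%). Without rats 11 and 57, chosen after seeing the data, bPYX+NT3 versus naïve gave 1 (3.16%) and bPYX+NT3 versus bPYX+GFP gave 4 (12.6%). The causes were not tested. The share of NM_ reads without Miat was 0.152%, 0.151% and 0.144% at the median of naïve, bPYX+GFP and bPYX+NT3 rats. LOC100910802 was not tested when more than 10 reads were required in 6 of the 12 rats.

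With the groups of the titles recorded with the count files, the replicate numbers pair samples by number only. That grouping called 1 transcript in bPYX+GFP versus naïve (Mir2985), 2 in bPYX+NT3 versus naïve (Mir2985 and Mir6323) and 2 in bPYX+NT3 versus bPYX+GFP (Lnc215 and Mir6323), each higher, beside 1.46%, 2.82% and 2.26% of all identifiers. With the replicate block it called 1, 1 and 2, beside 0.799%, 1.72% and 2.33%. Under the titles, and then under the titles with the replicate block, log2 fold changes reversed to 0.23 and 0.24 for H19 (bPYX+GFP versus naïve), 0.24 and 0.23 for Dzip1-ps1, -0.25 and -0.30 for LOC100910802 and 0.25 and 0.25 for Lnc215 (each bPYX+NT3 versus naïve), and 0.23 and 0.24 for Mir7-1 and 0.39 and 0.39 for Lnc215 (bPYX+NT3 versus bPYX+GFP).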
